A study of Mus musculus with 38 samples.

Results

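The broadest H3K4me3 domains were the widest stretches of sequence under H3K4me3 calls in wild-type mouse embryonic stem cells (mESCs). H3K4me3 calls of the 3 wild-type libraries were overlaid, bases called in at least 2 of 3 libraries were kept, touching pieces were joined, and the pieces of 2000 bp or more on chromosomes 1 to 19 were taken as broad domains. This rule left 765 domains of 21921 pieces, which is 3.49% of the pieces and 10.8% of the bases under them. The members were chosen by their wild-type H3K4me3 width, so these widths and the heights of the same calls are given as a description and were not tested.

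Sequencing of immunoprecipitated chromatin (ChIP-seq) for 5 histone marks compared mESCs with and without IκBα, the inhibitor of NF-κB that Nfkbia encodes. All cells were of the ES-E14TG2a line, grown in serum with leukemia inhibitory factor (LIF) and taken at 0 h, before any differentiation. IκBα-KO libraries came from 3 single clones in which CRISPR-Cas9 with a pair of guide RNAs had cut the Nfkbia gene, and IκBα-WT libraries from 3 single clones that had received scrambled guides, so clonal differences within a genotype are part of the spread and those shared by its 3 clones cannot be told apart from the genotype. Each mark had 3 libraries per genotype, which made 30 ChIP libraries of the 38 samples, and the other 8 were inputs that entered only through the input reads in the call lists.

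H3K4me3 is laid down around the starts of transcribed genes and at many promoters rich in CpG dinucleotides, where H3K27ac marks the same active promoters. At most promoters the mark covers a few nucleosomes, and the broadest domains are known from many cell types for sitting at genes of cell identity and at genes transcribed at high rates. H3K4me1 typically flanks H3K4me3 and marks enhancers, H3K27me3 is the mark of Polycomb repression and shares promoters with H3K4me3 at developmental genes of mESCs, and H3K9me3 belongs to heterochromatin.

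Stretches of promoter sequence before 4 genes with a broad domain differed in base composition. Each is the 250 bases before the RefSeq gene start, from GRCm38.p6, written 5′ to 3′ on the strand of the gene, with CpG dinucleotides in capitals. Mycn (chr12:12941837-12942086, minus strand) and Rps19 (chr7:24884342-24884591, plus strand) stand for the widest protein-coding domain and for the ribosomal protein genes, with 11 and 16 CpG. Sox2 (chr3:34649745-34649994, plus strand) stands for the pluripotency genes with 27 CpG, and Ptprg (chr14:11553303-11553552, plus strand), which also carried H3K27me3, had 31.
Mycn: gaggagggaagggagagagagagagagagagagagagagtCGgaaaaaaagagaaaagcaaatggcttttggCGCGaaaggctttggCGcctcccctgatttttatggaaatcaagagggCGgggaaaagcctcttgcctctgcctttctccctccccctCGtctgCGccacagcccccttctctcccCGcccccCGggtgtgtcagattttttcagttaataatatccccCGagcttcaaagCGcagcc
Rps19: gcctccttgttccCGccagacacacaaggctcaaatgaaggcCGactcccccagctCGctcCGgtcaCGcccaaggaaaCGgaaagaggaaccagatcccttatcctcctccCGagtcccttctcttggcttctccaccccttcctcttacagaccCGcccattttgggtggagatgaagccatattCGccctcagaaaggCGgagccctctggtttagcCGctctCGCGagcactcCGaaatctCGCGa
Sox2: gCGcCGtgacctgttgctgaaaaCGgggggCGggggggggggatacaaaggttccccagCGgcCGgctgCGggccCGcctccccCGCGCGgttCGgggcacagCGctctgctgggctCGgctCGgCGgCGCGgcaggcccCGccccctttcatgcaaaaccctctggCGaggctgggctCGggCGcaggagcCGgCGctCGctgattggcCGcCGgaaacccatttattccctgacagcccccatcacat
Ptprg: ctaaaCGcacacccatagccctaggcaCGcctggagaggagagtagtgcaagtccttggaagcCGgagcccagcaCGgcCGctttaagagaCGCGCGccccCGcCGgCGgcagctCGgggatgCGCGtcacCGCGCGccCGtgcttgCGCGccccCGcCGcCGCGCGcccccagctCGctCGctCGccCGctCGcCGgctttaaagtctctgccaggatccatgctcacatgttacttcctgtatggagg
Only 6 of the 250 bases before Mycn and 61 of those before Sox2 lay inside their domains, which ran downstream from the start, while the Rps19 and Ptprg stretches lay wholly inside.

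Reads per library could be taken from the files for 4 marks only. H3K4me3 lists held 21283 to 26109 calls on chromosomes 1 to 19 with no read counts, and the study's methods give only a range of sequenced reads over all H3K4me3 samples, a narrow one, so reads per library are not given here, and the larger numbers of calls were in IκBα-KO. ChIP reads in calls ranged from 8548342 to 35951506 per library for the other marks. Input reads of the genotypes differed over 4 stretches, on chromosomes 2, 8, 12 and 14, which together held 42 domains. At Nfkbia the calls measured 975, 1168 and 1180 bp in IκBα-WT against 590 and 642 bp in 2 IκBα-KO libraries and no call in the other, and its piece of 1180 bp was not a broad domain. As for cell type, H3K4me3 calls covered the starts of Pou5f1, Sox2 and Esrrb, which are mESC regulators, in 6 of 6 libraries, that of Zfp42 in 5, that of Nanog in 2 and that of Dppa4 in 0. Of 9 trophectoderm and fibroblast markers, H3K4me3 was called at Cdx2 in 5 libraries, at Thy1 in 6, at Twist1 in 1 and at the other 6 genes in 0. H3K27me3 was called within 500 bp of the start of Postn in 5 libraries and of the other trophectoderm and fibroblast markers in 6. Among the mESC genes named above it was called at Esrrb in 6 libraries and at the others in 0.

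Broad domains were mostly promoters of protein-coding genes. Of the 765 domains, 677 held the start of a protein-coding gene, 54 lay within 1000 bp of one, 16 lay inside a protein-coding gene and 18 touched none. A start lay inside 88.5% of the domains and inside 44.8% of the 21156 narrower pieces. Starts on both strands were found in 153 domains, or 20.0%, against 2.25% of the narrower pieces, although a wider piece holds more starts by its width alone. In all, 836 protein-coding genes started in a broad domain, which is 8.04% of the 10393 genes with a start under a wild-type piece.

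The median domain was 2300 bp wide, against 659 bp for the other pieces. Most were close to the threshold, with 512 domains under 2500 bp, 86 of 3000 bp or more and 7 of 4000 bp or more. Just inside the threshold were Pde5a, a cGMP phosphodiesterase gene (2001 bp), Pop7, which encodes a subunit of RNase P (2000 bp), and Srsf3, which encodes a splicing factor (2000 bp). Just outside it were the shared promoter of Lrrc40 and Srsf11 (1999 bp), Bdh1 (1999 bp) and a piece inside Sox17, which encodes an endoderm transcription factor (1998 bp).

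Trim71 had the widest domain, 5104 bp at chr9:114559248-114564351, although its annotated start lay just outside. Trim71 encodes an RNA-binding ubiquitin ligase of stem cells. Its calls summed to 5718, 5109 and 4892 bp in IκBα-WT and to 4851, 5025 and 6237 bp in IκBα-KO, so the genotypes overlapped. Mycn, a MYC-family transcription factor gene, had the widest domain with a protein-coding start inside (4979 bp, chr12:12936864-12941842). Its calls measured 5071, 4782 and 4865 bp in IκBα-WT and 4860, 5298 and 5062 bp in IκBα-KO. The genotypes overlapped here too.

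Malat1, a nuclear long noncoding RNA, had the widest domain without a protein-coding gene (4765 bp, chr19:5797860-5802624). Calls there measured 4749, 4663 and 4765 bp in IκBα-WT and 4620, 4547 and 7390 bp in IκBα-KO, so 1 IκBα-KO library stood far above the rest. The domain of Trim28, which encodes the corepressor of KRAB zinc-finger proteins, spanned 4426 bp, and that of Rabggtb, a subunit of the Rab geranylgeranyl transferase and a host of small nucleolar RNAs (snoRNAs), spanned 4411 bp. For Rabggtb the calls measured 4827, 4421 and 4340 bp in IκBα-WT and 5394, 5574 and 6651 bp in IκBα-KO, with every IκBα-KO value above every IκBα-WT value. At 4299 bp each followed the shared domain of Rpl4 and Zwilch and that of Spry2, an inhibitor of growth factor receptor signaling. Spry2 varied little, with 4198, 4336 and 4218 bp in IκBα-WT and 4276, 4301 and 4355 bp in IκBα-KO.

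Next by width came Sall4 (3970 bp), a pluripotency transcription factor gene in the chromosome 2 stretch of unequal input, and Tnpo2 (3949 bp), a nuclear import receptor gene in the chromosome 8 stretch. They were followed by the zinc-finger gene Patz1 (3938 bp) and by Ptprg (3915 bp), which encodes a receptor tyrosine phosphatase. Rps19 (3892 bp), a ribosomal protein gene, closed the 10 widest with a protein-coding start. At Rps19 the calls measured 3973, 3746 and 3917 bp in IκBα-WT and 4216, 4678 and 4851 bp in IκBα-KO, without overlap. The fold enrichment there, the height of a MACS2 call over its local background, was 10.6, 7.02 and 9.58 in IκBα-WT and 20.1, 20.4 and 20.3 in IκBα-KO.

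**Figure D1:**
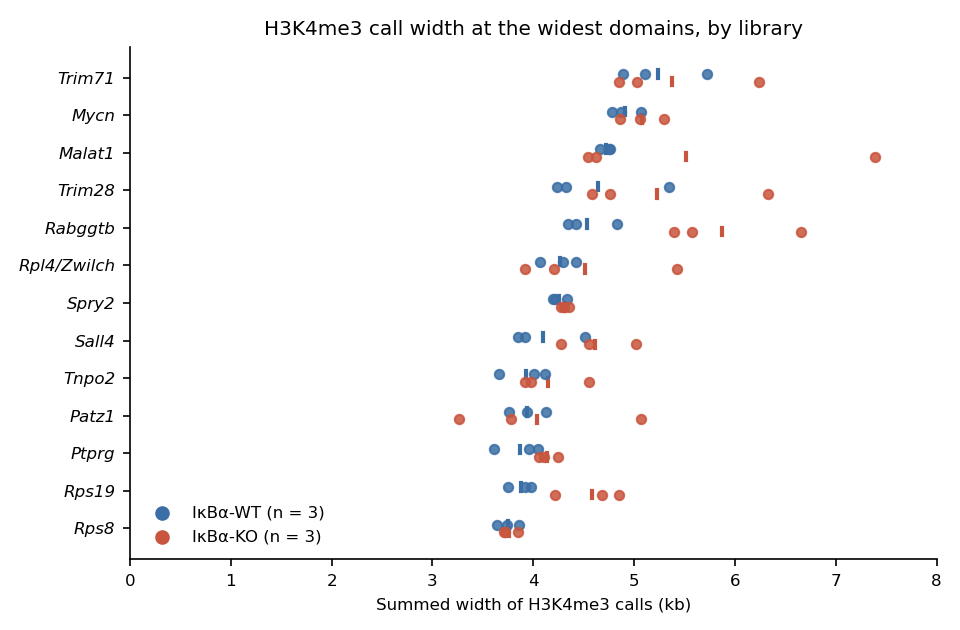
Summed width of H3K4me3 calls in kb (x axis) at the widest domains (y axis), with 1 point per library for 3 IκBα-WT and 3 IκBα-KO libraries. The points of the genotypes overlapped at Mycn and Trim71, and at Rabggtb and Rps19 all IκBα-KO points lay to the right of all IκBα-WT points.

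Domains also had higher calls, although the highest of the calls over a domain was taken and a wider piece offers more of them. Their median fold enrichment was 12.9, 11.8 and 14.3 in the IκBα-WT libraries, against 7.71, 7.28 and 8.41 for the other pieces. In the IκBα-KO libraries, which the rule did not use, it was 13.1, 14.0 and 14.1 against 8.62, 8.94 and 9.20. Every domain had at least 1 call in all 6 libraries, and between 121 and 238 of the 765 were split into 2 or more calls in a given library. Median summed widths were 2323, 2284 and 2330 bp in IκBα-WT and 2412, 2497 and 2585 bp in IκBα-KO.

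About a gene start, the domains extended mainly into the gene. Among 524 domains with starts on 1 strand only, the median reach was 626 bp upstream and 1728 bp downstream, and 476 of them (90.8%) were longer downstream. Narrower pieces had nearly the same preference, since 89.6% of 9009 were longer downstream, with medians of 116 bp and 752 bp. In the IκBα-KO libraries the downstream median of the domains was 1757, 1813 and 1855 bp, above 1712, 1716 and 1743 bp in IκBα-WT. At 3000 bp downstream of the start, 12.3% of the domains lay under an H3K4me3 call on average in IκBα-WT and 20.4% in IκBα-KO, against 1.43% and 2.23% of the narrower pieces.

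CpG dinucleotides were unevenly spread along the domains. The median G+C content was 57.8%, against 59.8% in the other pieces, and the median CpG density was 60.0 against 57.6 per kb. Their densest 500 bp held a median of 124 CpG per kb, against 72.8 in the other pieces, a measure that also grows with width. RefSeq held the 300 bases around the start (250 before and 50 after) for 665 of the 836 genes in broad domains. GGGCGG was found in 69.6% of these windows, in 68.3% of those at 7531 genes with a narrower piece and in 36.3% of all 25748 windows. TATAAA was found in 4.66%, 5.84% and 14.2%, CCAAT in 34.4%, 37.4% and 37.8%, and CACGTG in 9.02%, 10.3% and 7.23%, in the same order. Matches were counted for each motif by itself, and all 4 were read on both strands. For GGGCGG and TATAAA the genes of broad domains and of narrower pieces lay closer to each other than to all windows, and their median CpG number per window was 27 against 22.

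Small RNA genes were more often found inside broad domains. A snoRNA gene lay in 41 domains (5.36%) and in 30 of the other pieces (0.142%), and per Mb of sequence there were 43.6 snoRNA genes in domains and 2.44 elsewhere. Domains also reached further into the gene than narrower pieces. Counted by gene, the contrast was smaller. Of 297 protein-coding genes that hold a snoRNA gene and had H3K4me3 at a start, 48 (16.2%) started in a broad domain, against 7.81% of 10096 others. The 41 domains included the hosts Rabggtb, Rpl4, Rpl3, Nop56, Rack1, Eif4a2 and Snhg12, and most snoRNAs of mammals are processed from introns of such highly transcribed genes. MicroRNA genes lay in 16 domains (2.09%) and in 137 other pieces (0.648%), or at 14.9 and 9.38 genes per Mb. By width, 3.13% of the domains under 2500 bp and 17.4% of those of 3000 bp or more held a snoRNA gene.

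Cytosolic ribosomal protein genes had the highest share of broad domains among the gene lists examined, apart from the short list of embryonic stem cell markers (3 of 4 genes). Of 56 such genes with H3K4me3 at a start, 39 (69.6%) started in a broad domain, against 8.04% of all genes with H3K4me3 at a start. Immediate early and growth genes followed with 10 of 21 (47.6%), pluripotency genes with 10 of 23 (43.5%) and Polycomb complex genes with 8 of 21 (38.1%). Genes of formative and primed epiblast had 4 of 12, H3K4 methylation machinery 3 of 17, and NF-κB subunits and inhibitors 1 of 12, which was Nfkbid, an inhibitor of the IκB family. None of 19 germ layer regulators, 10 Hox genes and 11 imprinted genes with H3K4me3 started in a broad domain, and all 19 germ layer regulators carried H3K27me3 in 6 of 6 libraries. By the same width rule in IκBα-KO, the share was 12.8% of all genes, 86.0% of the ribosomal protein genes, 60.0% of the pluripotency genes and 31.8% of the Polycomb complex genes.

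**Figure D2:**
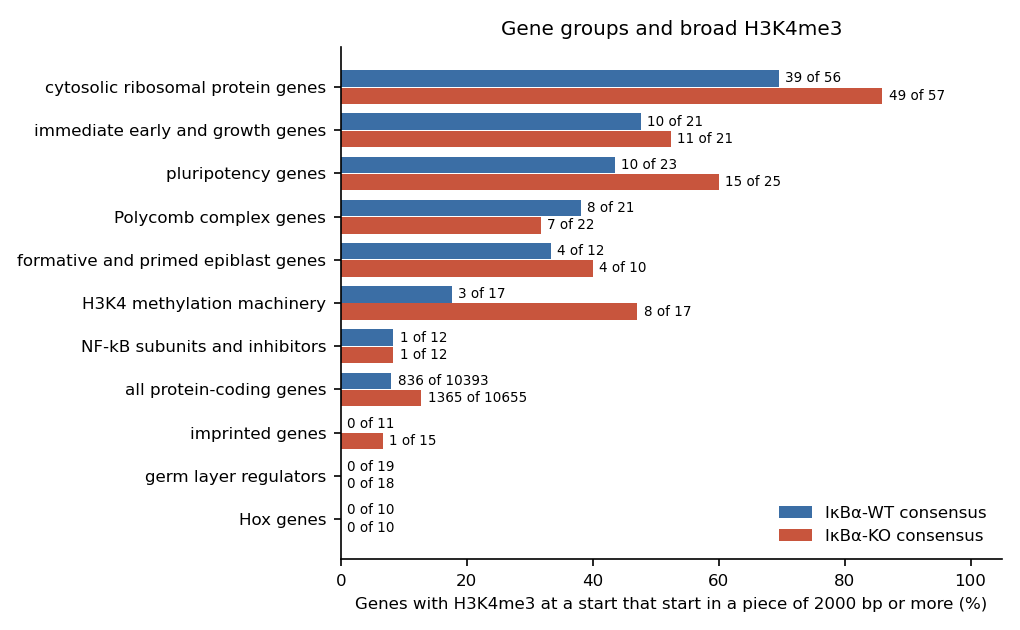
Percent of genes with H3K4me3 at a start that start in a piece of 2000 bp or more (x axis), by gene list (y axis), in the IκBα-WT and the IκBα-KO consensus. Ribosomal protein genes reached 69.6% and 86.0%, against 8.04% and 12.8% of all protein-coding genes.

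Pluripotency genes with a broad domain were Sall4, Socs3, Sox2, Utf1, Zfp42, Pou5f1, Rif1, Klf2, Klf5 and Tet2, and none of the 10 carried H3K27me3 in all 6 libraries. Sox2, a core pluripotency transcription factor gene, had calls of 4109, 2996 and 3047 bp in IκBα-WT and 2989, 3129 and 3174 bp in IκBα-KO. The first IκBα-WT library was the widest of the 6 and the genotypes overlapped. Pou5f1, which encodes OCT4, had 2741, 2810 and 3034 bp in IκBα-WT and 3243, 3215 and 4432 bp in IκBα-KO. Its IκBα-KO libraries all lay above the IκBα-WT libraries, and their fold enrichments of 13.9, 18.6 and 20.7 lay above 8.97, 12.6 and 11.5. Utf1, a chromatin-associated pluripotency gene, also had non-overlapping widths, 3455, 2797 and 3018 bp against 3471, 3572 and 3556 bp. Socs3, a feedback inhibitor of LIF signaling, overlapped with 3450, 3582 and 3582 bp against 3358, 3837 and 3494 bp. Zfp42, in the chromosome 8 stretch, had 3222, 2859 and 2776 bp against 2805, 5391 and 2965 bp. All 10 genes overlapped a piece of 2000 bp or more in the IκBα-KO consensus.

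Polycomb genes with a broad domain encode core subunits (Eed, Ezh2), accessory subunits (Epop, Jarid2, Aebp2) and partners in the other Polycomb complex (Phc1, Cbx7, Kdm2b). Cbx7, a chromodomain subunit, had nearly equal widths within IκBα-WT, with 3047, 3049 and 3040 bp in IκBα-WT and 3655, 3843 and 3834 bp in IκBα-KO. Its genotypes were well apart. Epop had 3525, 3585 and 3411 bp in IκBα-WT and 3732, 4250 and 4215 bp in IκBα-KO, also without overlap. Eed, which binds H3K27me3, had 2987, 3354 and 3689 bp against 3365, 3634 and 3798 bp, and overlapped. Jarid2 had 4242, 2829 and 2867 bp against 2882, 2720 and 2894 bp, and again 1 IκBα-WT library lay far above the others. Phc1 ranged from 3326 to 3490 bp over the 6 libraries, and Aebp2, the member of this list with H3K27me3 in all 6, from 2620 to 3287 bp.

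Immediate early and growth genes with a broad domain were Mycn, Spry2, Junb, Ier2, Klf10, Myc, Fosb, Spry4, Jun and Egr1. Junb, an AP-1 subunit gene in the chromosome 8 stretch, had 3388, 3338 and 3088 bp in IκBα-WT and 5201, 4974 and 4982 bp in IκBα-KO. Myc, which carried H3K27me3 in 6 of 6 libraries, had 2911, 2831 and 2831 bp against 2690, 2868 and 2691 bp. Klf10 had 2852, 3166 and 3162 bp against 2913, 2884 and 2969 bp, and both of these genes overlapped between the genotypes. Fosb, Jun and Egr1, like Myc, carried H3K27me3 in all 6 libraries.

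The 4 epiblast genes Lef1, Sox4, Dnmt3b and Zic5 all carried H3K27me3 in 6 of 6 libraries. Lef1, a Wnt pathway transcription factor gene, was narrower in every IκBα-KO library, with 2941, 2818 and 3150 bp in IκBα-WT and 2705, 2619 and 2771 bp in IκBα-KO. Dnmt3b, a de novo DNA methyltransferase gene, had 1978, 2189 and 2338 bp against 1749, 2200 and 2070 bp, and overlapped. Among the H3K4 methylation machinery, Ing1, a reader of H3K4me3, had 3279, 3129 and 3039 bp against 3253, 3349 and 3305 bp. Kdm5a and Setd1a, an H3K4 demethylase and an H3K4 methyltransferase gene, had pieces of 2291 and 2050 bp.

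Whether the domains kept their breadth without IκBα was asked of the 3 IκBα-KO lists. Of the 765 domains, 599 (78.3%) overlapped a piece of 2000 bp or more in the consensus of at least 2 of 3 IκBα-KO libraries, against 8.34% of all wild-type pieces. None was without an IκBα-KO piece. The other 166 had a largest IκBα-KO piece of 1633 bp in the median, and 92 of them still reached 1500 bp. The share rose with wild-type width, from 72.7% of those under 2500 bp and 86.8% of those from 2500 bp to 95.3% of those of 3000 bp or more. It ranged from 57.1% to 87.9% when 1 library was left out, since a consensus of 2 libraries needs both, with 57.1% without the third IκBα-KO library. Single calls of 2000 bp or more lay over 77.5%, 71.6% and 81.2% of the domains in the IκBα-WT libraries. In the IκBα-KO libraries they lay over 65.1%, 75.9% and 80.4%.

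Seen from IκBα-KO, broad pieces were more numerous. There were 1251 of them, of which 600 (48.0%) overlapped a broad domain of IκBα-WT, and 212 reached 3000 bp. Because domains chosen for width in one set of libraries tend to be narrower in any other, domains were also chosen without regard to genotype, from bases called in at least 4 of the 6 libraries. This gave 764 domains of 2000 bp or more, of which 615 overlapped a broad domain. Their summed call width was 1868, 1840 and 1887 kb in IκBα-WT and 1971, 2079 and 2144 kb in IκBα-KO. All IκBα-KO libraries lay above all IκBα-WT libraries, with means of 1865 ± 23.5 kb and 2065 ± 87.3 kb (SD, n = 3 each). The difference of 200 kb had p = 0.1 in a two-sided exact permutation test, the smallest p that 3 against 3 libraries can give, so p = 0.05 could not be reached in any comparison of this kind. The difference was 109 kb without the third IκBα-KO library. There the rule still asked for at least 4 of the remaining libraries, so the set of domains changed as well. It was 63.8 kb where only the bases inside the domains were counted, a measure added after seeing the data.

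Counted in each library by itself, broad calls were also more numerous in IκBα-KO. Calls of 2000 bp or more numbered 737, 641 and 831 in IκBα-WT and 943, 1243 and 1437 in IκBα-KO, or 736 ± 95.0 against 1208 ± 249 (SD, n = 3 each, p = 0.1, two-sided exact permutation test). They made up 3.28%, 3.01% and 3.61% of the calls in IκBα-WT and 4.08%, 4.84% and 5.50% in IκBα-KO. The IκBα-KO lists also covered more sequence in all. Taken relative to all called bases, the genotype-blind domains held 10.5%, 10.9% and 9.99% in IκBα-WT and 10.6%, 9.92% and 9.89% in IκBα-KO, which overlapped, and the difference of −0.352 percentage points had the opposite direction (p = 0.3, exact permutation test). The H3K4me3 lists hold no reads per library. The methods place all H3K4me3 samples within a narrow range of sequenced reads, and what part the remaining differences in reads had in the larger widths was not tested.

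**Figure D3:**
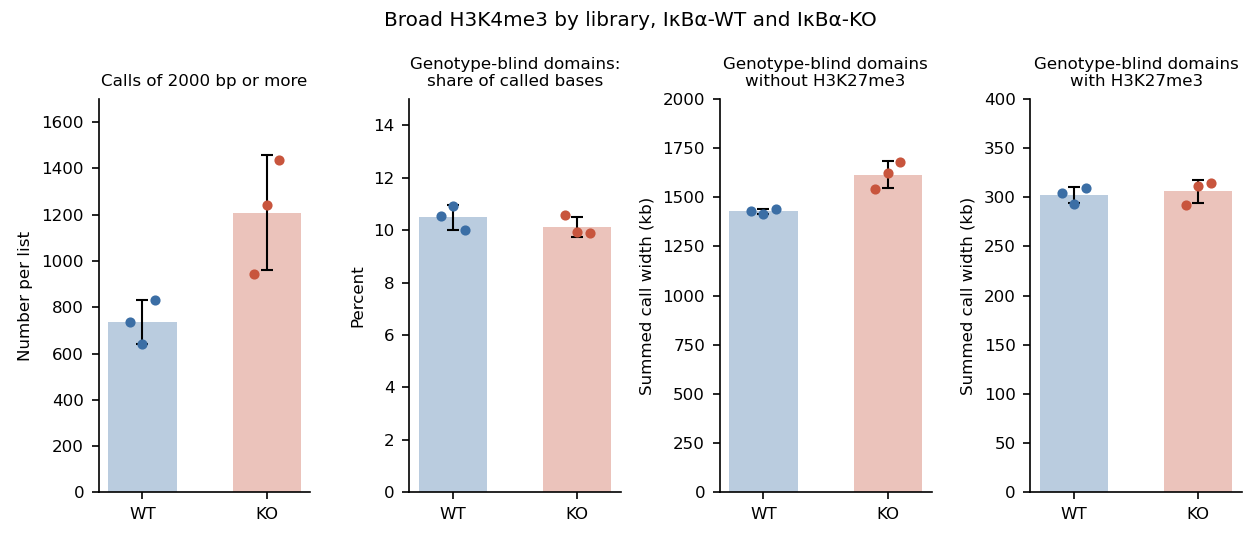
Measures of H3K4me3 breadth (y axes, with units on each panel) by genotype (x axis), with 1 point per library, 3 IκBα-WT and 3 IκBα-KO. Calls of 2000 bp or more numbered 641 to 831 in IκBα-WT and 943 to 1437 in IκBα-KO, while the share of all called bases in genotype-blind domains overlapped between the genotypes.

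At the 765 wild-type domains, mean call width was larger in IκBα-KO at 535 and smaller at 230, and the median difference was 136 bp. The 3 values of each genotype did not overlap at 184 domains that were wider in IκBα-KO (24.1%) and at 48 that were narrower (6.27%). Over all 16059 pieces called in 6 lists the shares were 21.8% and 6.51%, so the domains were close to this background. At the pieces that were broad in IκBα-KO the median difference was 298 bp, and 1063 were wider and 188 narrower, so the value moved with the genotype used for the choice.

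Zfp553, a zinc-finger gene, held the 2 domains with the largest excess of mean width in IκBα-KO. The domain at its start (2495 bp) had calls of 2166, 2518 and 2660 bp in IκBα-WT and 3620, 6990 and 7518 bp in IκBα-KO. Its neighbor inside the gene (2008 bp) joined the same calls in 2 of the IκBα-KO libraries. The piece there spanned 6975 bp in the IκBα-KO consensus, the widest of all IκBα-KO pieces. Hmga1, a chromatin architecture gene, had 4073, 2694 and 3107 bp in IκBα-WT and 5426, 5213 and 5504 bp in IκBα-KO, without overlap. N4bp1 and Ier2, the remaining 2 of the 5 largest, lay in the chromosome 8 stretch of unequal input, where IκBα-KO had more input reads. N4bp1 had 2049, 2930 and 1807 bp in IκBα-WT and 4652, 5001 and 4877 bp in IκBα-KO, and Ier2, an immediate early gene, had 3538, 3160 and 3224 bp against 6181, 6467 and 4242 bp.

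Tlx2, a homeobox gene, had the largest deficit in IκBα-KO, with 2388, 2204 and 2443 bp in IκBα-WT and 596, 1066 and 1097 bp in IκBα-KO. Its fold enrichment was 7.65, 4.69 and 10.1 in IκBα-WT and 4.66, 5.73 and 5.57 in IκBα-KO, which overlapped. The shared promoter of Atg2b, an autophagy gene, and Gskip followed with 2371, 2366 and 2733 bp against 993, 1389 and 1297 bp, in the chromosome 12 stretch where IκBα-KO had fewer input reads. Azin2, an antizyme inhibitor gene, had 2226, 2496 and 2338 bp against 1241, 1578 and 1396 bp. Sema6a, a semaphorin gene, had 2383, 2767 and 2496 bp against 1148, 1793 and 1493 bp. Plec, which encodes the cytoskeletal linker plectin, overlapped between the genotypes with 2069, 1599 and 3170 bp against 1173, 1682 and 1259 bp. Of these 5 domains, all but that of Atg2b and Gskip carried H3K27me3 in 6 of 6 libraries, against 22.1% of all 765 domains and 36.4% of all pieces.

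Ribosomal protein genes were wider in IκBα-KO at 37 of 39 domains, with a median difference of 557 bp. Their median widths were 2718, 2538 and 2642 bp in IκBα-WT and 3097, 3290 and 3371 bp in IκBα-KO. At 19 of the 39 the genotypes did not overlap, all of them wider in IκBα-KO, against 21.8% wider and 6.51% narrower without overlap among all pieces called in 6 of 6 lists. Rpl9 showed a wide gap, with 2126, 1826 and 2191 bp against 3499, 3503 and 3997 bp. Rpl19 likewise had 2411, 2232 and 2230 bp against 3278, 3417 and 3240 bp. Rpl22 lay the other way, with 2457, 3522 and 2634 bp against 2505, 2405 and 2622 bp, and overlapped. Rpl9, Rpl19 and Rpl22 were picked here after their values were seen. Ribosomal protein genes have many processed pseudogenes, and reads that mapped to several places had been removed. What part this had in the edges of their calls was not tested. Domains with a snoRNA gene, 13 of which also held a ribosomal protein gene start, had a median difference of 506 bp, and 40 of 41 overlapped a broad piece of IκBα-KO.

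H3K27ac covered nearly all bases of the broad domains as a set. The labels name 1 antibody for both H3K27ac and H3K4me1 while the methods name another for H3K27ac, so the target of the H3K27ac libraries rests on their labels. Calls of H3K27ac, from the epic2 region caller, lay over 98.7%, 98.8% and 99.2% of the domain bases in IκBα-WT and 98.8%, 99.0% and 98.9% in IκBα-KO. Over the other H3K4me3 pieces they covered 89.4%, 89.4% and 90.2% and 87.4%, 87.4% and 86.2%. The domains were 10.6 percentage points above the other pieces (SD 1.51, higher in 6 of 6 libraries). This had p = 0.03125 in a two-sided exact sign-flip permutation test, the smallest that 6 libraries allow, which the Benjamini-Hochberg adjustment over the 4 marks left the same. The excess was 9.31, 9.44 and 9.01 percentage points in IκBα-WT and 11.4, 11.5 and 12.7 in IκBα-KO, so the SD also holds a difference between the genotypes. Between the genotypes the coverage of domains overlapped (p = 1, exact permutation test). With nearly all domain bases covered in every library, this comparison had little room to show a difference. Over the other pieces the genotypes did not overlap and differed by −2.63 percentage points (p = 0.1, exact permutation test). All 765 domains had an H3K27ac call in at least 1 library and 756 in all 6 (98.8%, against 79.2% of the other pieces).

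H3K4me1 covered less of the broad domains than of other pieces, and less again in IκBα-KO. Its calls covered 61.7%, 62.6% and 61.8% of domain bases in IκBα-WT and 50.6%, 49.9% and 49.6% in IκBα-KO. Other pieces had 79.0%, 78.9% and 79.0% in IκBα-WT and 69.6%, 69.5% and 68.6% in IκBα-KO. Domains lay 18.1 percentage points below other pieces (SD 1.32, lower in 6 of 6 libraries, p = 0.03125, exact sign-flip permutation test). The genotypes were apart by 12.0 percentage points at the domains, with no overlap and the smallest possible p of 0.1 (exact permutation test), or 0.2 adjusted over the 4 marks. Other pieces differed by 9.73 percentage points, and the gap between the differences, 2.27 percentage points, also had p = 0.1 in an exact permutation test. H3K4me1 coverage was thus lower in IκBα-KO at pieces of either class.

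H3K4me1 was sparse around the gene start and lowest at 200 bp downstream of it, at 34.0% in IκBα-WT and 22.2% in IκBα-KO. Among the 524 domains with starts on 1 strand, 35.6% lay under an H3K4me1 call at the start on average in IκBα-WT and 23.0% in IκBα-KO, while at 3000 bp downstream the values were 94.6% and 93.6%. At 1000 bp downstream they were 70.9% and 56.9%. Narrower pieces had 68.8% and 57.5% at the start. H3K4me3 itself covered 94.6% and 93.3% of the domains at 1000 bp, so the larger differences between the genotypes lay inside the domains and the smaller one in the flank.

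**Figure D4:**
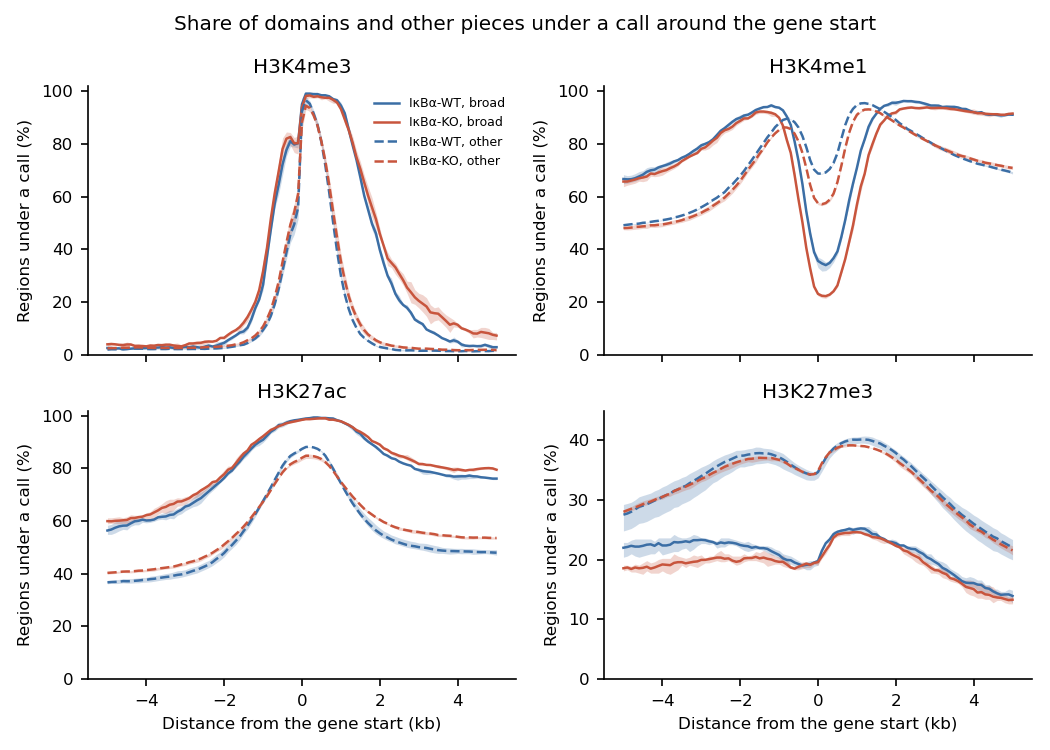
Percent of regions under a call (y axis) against distance from the gene start in kb (x axis, downstream to the right), in 1 panel per mark, as means of 3 libraries for 524 broad domains and 9009 narrower pieces. In H3K4me1 the domains had 35.6% in IκBα-WT and 23.0% in IκBα-KO at the start, close to the bottom of the dip at 200 bp, and in H3K4me3 the IκBα-KO curve of the domains stayed higher at 3 kb, at 20.4% against 12.3%.

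H3K27me3 divided the domains into classes. It was called over 169 domains in 6 of 6 libraries (22.1%, against 36.9% of the other pieces), over 553 in 0 of 6 and over 43 in 1 to 5. By bases, calls covered 18.5%, 18.9% and 18.2% of the domains in IκBα-WT and 18.0%, 18.2% and 18.1% in IκBα-KO. Domains lay 18.2 percentage points below the other pieces (SD 0.521, lower in 6 of 6 libraries, p = 0.03125, exact sign-flip permutation test). Between the genotypes the values did not overlap, but the difference was −0.448 percentage points (p = 0.1, exact permutation test, 0.2 adjusted), and with domains of 3000 bp or more only, or covered in 3 of 3 libraries, it had the opposite sign. Without the second IκBα-WT library it was −0.253 percentage points.

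Domains with H3K27me3 in 6 of 6 libraries had other features in common. Their median CpG density was 79.8 per kb, against 53.0 in domains without H3K27me3, and H3K4me1 covered 83.8%, 86.5% and 85.9% of their bases in IκBα-WT and 78.7%, 77.8% and 77.0% in IκBα-KO. None of the 169 held a snoRNA gene. In IκBα-KO 62.1% of them overlapped a broad piece, against 83.2% of the 553 without H3K27me3, and their median width difference was −51.3 bp against 191 bp. Non-overlapping widths were wider in IκBα-KO at 14 and narrower at 27 of the 169, and wider at 160 and narrower at 18 of the 553, against 21.8% and 6.51% of all pieces called in 6 of 6 lists. Among the genotype-blind domains, 125 with H3K27me3 in 6 of 6 libraries summed to 305, 293 and 309 kb in IκBα-WT and 292, 311 and 314 kb in IκBα-KO, which overlapped (difference 3.73 kb, p = 0.6, exact permutation test). The 586 without it summed to 1429, 1415 and 1443 kb and to between 1542 and 1678 kb, which did not overlap (difference 185 kb, p = 0.1, exact permutation test). The difference between these classes was not tested.

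H3K9me3 calls were rare in the domains but less rare than elsewhere. They covered 9.77%, 7.74% and 8.62% of domain bases in IκBα-WT and 8.41%, 7.59% and 7.80% in IκBα-KO, against 1.75% to 2.08% of the other pieces. The excess of 6.42 percentage points (SD 0.854, higher in 6 of 6 libraries) had p = 0.03125 in an exact sign-flip permutation test. With equal numbers of the top-ranked calls taken from each library, the excess shrank to 1.31 percentage points (p = 0.09375, exact sign-flip permutation test). The genotypes overlapped (p = 0.3, exact permutation test). No library had a call at 80.3% of the domains and at 93.6% of the other pieces, although a wider piece is touched more easily. Calls touched 151 domains in at least 1 library and 18 in all 6 (2.35%, against 0.704% of the other pieces). Among the 18 were Malat1, Rpl3, Rpl32, the snoRNA host Nop56, the glycolytic gene Gapdh, the chaperone gene Hsp90ab1 and Zfp553.

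Of the 39 domains of ribosomal protein genes 36 had an H3K9me3 call in at least 1 library, as had 35 of the 41 with a snoRNA gene and 116 of the 724 without one. These calls were weak. Their median log2 ratio of ChIP to input was 0.61, 0.55 and 0.59 in IκBα-WT and 0.45, 0.32 and 0.41 in IκBα-KO, against 1.46 to 1.59 for all H3K9me3 calls. Input reads there stood at 25.4 to 29.3 per kb in the median, above 20.0 to 20.8 per kb over all calls. Calls at the other H3K4me3 pieces had input of 23.0 to 27.2 per kb, also raised, and log2 ratios of 0.91 to 1.33. What part the raised input reads or the caller had in these calls was not tested.

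**Figure D5:**
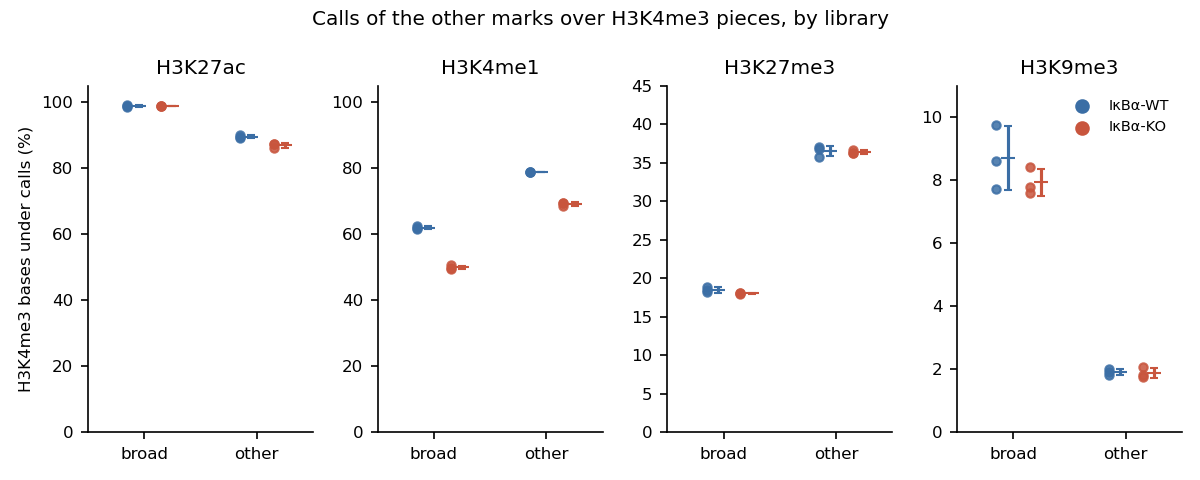
Percent of bases under calls (y axis) in the 765 broad domains and the 21156 other H3K4me3 pieces (x axis), in 1 panel per mark, with 1 point per library, 3 IκBα-WT and 3 IκBα-KO. In all 6 libraries H3K27ac and H3K9me3 covered more, and H3K4me1 and H3K27me3 less, of the broad domains than of the other pieces, and H3K4me1 was lower in every IκBα-KO library.

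ChIP read counts of the 4 marks were then compared in the called regions over the domains. Only regions called in all 6 libraries with similar lengths could be tested, and these often span far more sequence than the domain, so a result belongs to the region and not to the domain alone. H3K27ac could be tested at 443 of 765 domains. By edgeR's quasi-likelihood test with Benjamini-Hochberg adjustment over all regions, 133 of them (30.0%) lay under a region with more and 134 (30.2%) under a region with fewer ChIP reads in IκBα-KO, against 26.4% and 26.5% of all 4054 tested regions. The median log2 fold change at the domains was 0.00, as over all regions, so the domains were close to the background. This split rested on the scaling, since it was 88 more and 196 fewer with library totals alone (18.4% and 36.5% of all regions). With region length as an offset it was 64 more and 240 fewer (3.0% and 18.5% of all regions), and the median log2 fold change of all regions was −0.13. Without domains in the stretches of unequal input the split was 113 more (26.7%) and 134 fewer (31.7%) of 423 domains. No share over all regions outside these stretches was computed, so this split has no matching background.

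Dnmt3b had the largest fall of H3K27ac among the domains. Its region of 38.2 kb held 298, 305 and 299 counts per 1000000 reads (CPM) in IκBα-WT and 184, 178 and 197 CPM in IκBα-KO. The log2 fold change was −0.69 ± 0.04 (SE, adjusted p = 3.32e-12, edgeR quasi-likelihood test). Zic5, an epiblast zinc-finger gene, followed suit with 217, 210 and 217 CPM against 158, 158 and 158 CPM, and so did Rnd3, with 173, 175 and 187 CPM against 135, 129 and 120 CPM. Klf2 and Gse1, among the largest rises, lay in the chromosome 8 stretch of unequal input, with log2 fold changes of 0.73 and 0.70. Outside such stretches the largest rises were at Pfkp, a glycolytic enzyme gene, with a log2 fold change of 0.47 ± 0.03, Mtdh (0.31 ± 0.04) and Noct (0.30 ± 0.03). Those at Pfkp and Noct passed under all 13 alternatives, and that at Mtdh lost its call with the length offset (adjusted p = 0.156, edgeR quasi-likelihood test).

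H3K4me1 could be tested at 607 domains. By the same edgeR test, 198 of them (32.6%) lay under a region with more and 170 (28.0%) under a region with fewer reads in IκBα-KO, against 23.4% and 20.0% of all 10959 tested regions. Some domains touched several regions or regions of both kinds, and 359 lay under at least 1 called region. The shares of domains and of regions are therefore not in the same unit. Counted by region, 211 of the 715 tested regions at the domains had more reads and 169 had fewer. With library totals alone the split was 136 more and 259 fewer (16.2% and 32.7% of all regions), and with the length offset 220 and 18 (7.46% and 0.771%). Without domains in the stretches of unequal input the split was 167 more (29.0%) and 170 fewer (29.5%) of 576 domains, again with no matching share over all regions outside them. Where most of the domain had to lie inside the region it was 75 (23.1%) and 109 (33.5%) of 325 domains, against the same 23.4% and 20.0% of all regions, so the direction over the domains turned with the method.

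Klf4, a pluripotency transcription factor gene, had the largest fall of H3K4me1. Its region of 4.2 kb, little longer than the domain of 2852 bp, held 20.3, 19.4 and 19.5 CPM in IκBα-WT and 13.5, 13.1 and 13.6 CPM in IκBα-KO. The log2 fold change was −0.56 ± 0.07 (SE, adjusted p = 5.58e-08, edgeR quasi-likelihood test), and it passed under all 13 alternatives. Ssr2, a gene of the endoplasmic reticulum translocon, fell by 0.39 and Irs2, an insulin receptor substrate gene, by 0.36 on the log2 scale, and the call at Ssr2 was lost with the length offset (adjusted p = 0.0639, edgeR quasi-likelihood test). The largest rises, at Gnpat, Ell and Gab1, again lay in the chromosome 8 stretch, with log2 fold changes of 0.74 to 0.81. Outside such stretches Xpo7, a nuclear transport receptor gene, rose from 88.0, 87.6 and 89.0 CPM to 118, 116 and 120 CPM. Spred1, an inhibitor of RAS signaling, and Pds5a, a cohesin regulator, rose by 0.40 ± 0.03 and 0.36 ± 0.03 on the log2 scale.

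H3K27me3 could be tested at 45 domains only. Of these, 7 (15.6%) lay under a region with more and 12 (26.7%) under a region with fewer reads in IκBα-KO by the same edgeR test, against 15.8% and 19.3% of all 2025 tested regions. Trio, a guanine exchange factor gene, lay in a region of 62.4 kb with 1259, 1268 and 1301 CPM in IκBα-WT and 985, 1001 and 1063 CPM in IκBα-KO. Zfp800 had 339, 312 and 333 CPM against 243, 249 and 270 CPM, with a log2 fold change of −0.37 ± 0.06. Rreb1, a zinc-finger transcription factor gene, fell by 0.30, and Crhr1, Rasgrp2 and Mpp2 rose by 0.18 to 0.22 on the log2 scale, and these 4 calls were lost with the length offset. H3K9me3 could be tested at 2 domains, of which that of Slc20a2 and Smim19 had a log2 fold change of 0.12 ± 0.04 (adjusted p = 0.0433, edgeR quasi-likelihood test), against 6.91% of all regions with more and 7.38% with fewer reads. This call was lost with DESeq2 (adjusted p = 0.0707) and in the edgeR quasi-likelihood test with the length offset (adjusted p = 0.459). The edgeR quasi-likelihood test also lost it without the second IκBα-WT (adjusted p = 0.202), the third IκBα-WT (0.0965), the first IκBα-KO (0.112) or the third IκBα-KO library (0.128). At Rasgrp2 the same test lost the call under the same omissions, with adjusted p of 0.0779, 0.135, 0.0627 and 0.0677 in that order, and DESeq2 gave an adjusted p of 0.0514.

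Few domains had a mark called in all 3 libraries of 1 genotype and in none of the other. For H3K27ac there were 0 in either direction, against 1.28% of all wild-type pieces lost and 0.155% gained. H3K4me1 was called only in IκBα-WT at 3 domains, those of Cdyl, a chromodomain protein gene, Mkrn1, a ubiquitin ligase gene, and Esyt2, which lay in the chromosome 12 stretch, against 0.538% of all pieces, and only in IκBα-KO at 0, against 0.0456%. At Cdyl the calls covered 65.4%, 85.4% and 85.4% of the domain in IκBα-WT and nothing in IκBα-KO.

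H3K27me3 was called only in IκBα-WT at Irf2bpl and at Tcf15, a transcription factor gene, and only in IκBα-KO at Ptch1, the Hedgehog receptor gene, and Marcks, against 0.515% and 0.401% of all pieces. Ptch1 had H3K27me3 calls over 62.3%, 45.3% and 68.0% of its domain in IκBα-KO. H3K9me3 was called only in IκBα-WT at 5 domains, among them Rps19, Tpt1, Taf1d and Rpl28, and only in IκBα-KO at 3, Irf2bpl, the shared promoter of Dbf4 and Slc25a40, and Hmgxb4, against 0.283% and 0.16% of all pieces. Hmgxb4 lay in the chromosome 8 stretch. Irf2bpl appeared with both marks, with H3K27me3 over 70.1%, 68.7% and 61.8% of its domain in IκBα-WT only and H3K9me3 over 90.7%, 77.0% and 100% in IκBα-KO only. Over the 4 marks 15 pairs of a domain and a mark met this rule, and 26 and 24 did without the second and without the third IκBα-WT library.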

How the data were processed

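ChIP-seq lists of 5 histone marks in 3 IκBα-WT and 3 IκBα-KO libraries each were used. According to the study's methods, reads were trimmed, aligned to GRCm38 and stripped of multimapping and low-quality alignments. Submitters' processing notes name Bowtie2 2.4.4, MACS2 2.2.7.1 and SICER 0.0.52. The H3K27ac aligner and the H3K9me3 processing are not given in the sources used here, and for H3K27ac the labels give the antibody they also give for H3K4me1, while the methods name another. For H3K4me3 the authors deposited MACS2 calls per library with a fold enrichment, −log10 p-values and q-values and a score, but no count. For the other marks the deposited epic2 regions, in steps of 200 bp, hold a count of ChIP and of input reads, a p-value, a log2 ratio and a score. All lists had been called per library with a false discovery rate under 0.05, against 1 input per genotype and experiment.

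Members and gene lists were chosen with earlier results of these data known. Width in a library was the summed width of the calls that overlap a domain, and fold enrichment the highest of them. Genes were those of GENCODE M21 (GRCm38), and promoter sequences those of RefSeq GRCm38.p6. Coverage was compared over libraries with two-sided exact permutation tests, over 20 assignments of 3 against 3 libraries or 64 sign assignments of 6 libraries. Counts per merged region were tested in edgeR 4.0.16 (R 4.3.3, TMM, quasi-likelihood, Benjamini-Hochberg adjusted p under 0.05 over all regions of a mark), over regions called in all 6 libraries whose shortest covered length was at least 0.8 of the longest. CPM are reads per 1000000 in tested regions after TMM scaling. The procedure was checked on simulated counts drawn with 1 common dispersion, and the outcome is not given here. Intervals were handled in Python 3.11.15 with pandas 2.3.3 and numpy 2.4.6. Replicates are clones, and p-values measure the spread between them. The sign-flip tests over 6 libraries pool both genotypes, so their spread also holds differences between the genotypes. Named genes were the 10 widest domains, the widest without a protein-coding start, up to 6 genes per list by width, the 3 nearest the threshold on each side, the 5 largest rises and falls in width, the 3 largest log2 fold changes per mark and direction among called regions whose genotypes do not overlap, the domains called in all libraries of 1 genotype only, and Nfkbia. The alternatives were other width and consensus rules, a stricter q-value of 0.01, joining within 500 bp, other scalings and filters, DESeq2 1.42.0, and leaving out each library. Inputs with no list and chromosomes X and Y were not analysed here. Results for some named genes are not reported here.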

Additional observations from a re-analysis of the deposited data

How the results depend on the processing

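The number of H3K4me3 calls of 2000 bp or more per library was higher in IκBα-KO under all alternatives run. The summed width over genotype-blind domains was too, by 109 to 178 kb with 1 library left out against 200 kb. With 1 left out, at least 4 of the remaining libraries were still asked for, so these sums are over other sets of domains. For bases inside the domains (added after seeing the data) it was higher by 63.8 kb. The exception was the measure relative to all called bases, also added then, with a difference of −0.352 percentage points. The share of broad domains that overlapped an IκBα-KO piece of 2000 bp or more ranged from 57.1% to 87.9% with 1 library left out and was 87.6% with pieces within 500 bp joined. The H3K27ac difference between genotypes, −0.0106 percentage points, turned sign with the domain set and the library left out. It ranged from −0.103 to 0.129 with 1 library left out, and was 0.0263 without the first IκBα-KO library, 0.143 with pieces called in all 3 libraries and 0.117 with the top-ranked pieces. The H3K27me3 difference was 0.127 with pieces called in all 3 libraries and 0.739 at 3000 bp or more, and −0.613 to −0.253 with 1 library left out. The H3K9me3 difference was −1.26 to −0.243 with 1 library left out and 2.16 with the top-ranked pieces.

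Broad domains minus other pieces ranged from 10.1 to 10.9 for H3K27ac, −18.4 to −17.7 for H3K4me1, −18.4 to −18.1 for H3K27me3 and 6.14 to 6.56 percentage points for H3K9me3 with 1 library left out, where an exact sign-flip test over 5 libraries cannot go below p = 0.0625. With the top-ranked pieces the H3K9me3 value was 1.31 (p = 0.09375, exact sign-flip test).

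The numbers of domains under differing regions (267 for H3K27ac, 359 for H3K4me1, 19 for H3K27me3 and 1 for H3K9me3) follow the number of domains. They were 140, 150, 3 and 0 with pieces called in all 3 libraries, 46, 54, 2 and 0 at 3000 bp or more, and 574, 888, 57 and 5 with pieces joined. For H3K4me1 the number was 238 with the length offset and 184 where most of the domain had to lie inside the region. For H3K9me3 it was 0 with DESeq2 or the length offset and between 0 and 2 with 1 library left out. Pairs of a domain and a mark called in 1 genotype only numbered 19 to 26 with 1 library left out, against 15, an alternative added after seeing the data that asks for fewer libraries.

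In the read counts of H3K27ac, H3K4me1, H3K27me3 and H3K9me3, same-numbered samples deviated from their group means with correlations of −0.0835 to 0.113, so the numbers did not pair the samples of these marks. H3K4me3, which has no counts, was not checked. With the replicate block the edgeR numbers were 266, 359, 20 and 1. The paired exact sign-flip tests over 3 pairs cannot go below p = 0.25.

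The H3K4me3 lists hold no read counts, so their widths were compared without reads per library. With 3 samples against 3, an exact permutation test cannot go below p = 0.1. Regions of the other marks were tested where all 6 libraries called them with similar length.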
